A study of Mus musculus with 16 samples.

Results

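The change of each transcript between GV oocytes and eggs (MII-stage oocytes) was measured in Psma7 cKO females. The comparison used 8 of the 16 RNA-seq libraries of the study, namely the 4 cKO MII libraries and the 4 cKO GV libraries, chosen by the genotype and stage in their labels. In the Psma7 cKO (Psma7 fl/fl;Zp3-Cre) the Zp3 promoter drives CRE in growing oocytes only, so that the follicle cells kept an intact Psma7 gene and the oocyte grew to full size while losing it. The other 8 libraries, 4 WT GV and 4 WT MII, were wildtype oocytes collected in the same way and served to set each cKO change beside the WT one. All females were 3 to 4 weeks old and received 5 IU PMSG. GV oocytes were taken 44 h later, and eggs were taken from the oviduct 14 to 16 h after hCG and freed of cumulus cells with 0.3% hyaluronidase. Each library held 5 oocytes according to the labels, whereas the study's methods speak of larger pools of embryos. The labels call the 4 libraries of a group biological replicates but do not say how many females were pooled in each. The study reports that part of the ovulated cKO oocytes released no first polar body or stayed at the GV stage. It also describes cKO oocytes with a polar body that had stopped at telophase I. By its account residual PSMA7 protein remained in cKO oocytes during maturation, so the loss was partial. The labels give all egg pools as MII, and whether the cKO pools held oocytes of other stages was not tested.

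A fully grown GV oocyte has stopped transcribing, and it carries a store of maternal mRNA through both meiotic divisions. During maturation some stored mRNAs lose their poly(A) tail and are degraded, with BTG4 bringing the CCR4-NOT deadenylase to mRNAs that are being translated, while others receive a longer tail through cytoplasmic polyadenylation elements (CPEs) near their 3′ end and are translated. PSMA7 is an alpha subunit of the 20S core of the proteasome, which cuts proteins that carry ubiquitin chains, and degradation of cyclin B and securin by the proteasome is what lets a meiotic cell enter anaphase. The cDNA was primed with oligo-dT, so a lower value in eggs can be fewer molecules or a shorter tail. A higher value can likewise be more molecules or a longer tail, and the 2 cannot be told apart here. FPKM (fragments per kilobase of transcript and M fragments sequenced) is also a share of the library, so every change below is relative to the rest of the polyadenylated RNA.

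The libraries were first checked against their labels. Psma7 (chr2:180036374-180042433 in GRCm38, minus strand) was at 154, 142, 201 and 164 FPKM in WT GV oocytes and 118, 116, 97.7 and 172 FPKM in WT eggs. In the cKO it was at 14.5, 14.7, 11.1 and 18 FPKM in GV oocytes and 13.6, 50.3, 35.0 and 59.9 FPKM in eggs. All 8 cKO values were below all 8 WT values, but cKO eggs 2, 3 and 4 were above every cKO GV library and egg 1 was not (log2 fold change 1.27 ± 0.41 (SE), limma adjusted p = 0.0188). The adjusted p was 0.0552 without cKO GV library 3 and 0.0513 without cKO egg 4, and egg 1 alone differed from the GV libraries by -0.077 on the log2 scale. All 13 entries of the oocyte marker list were above 1 FPKM on average in both stages. Of 25 cumulus and granulosa markers, counting the blood cell marker Ptprc, 20 in GV oocytes and 21 in eggs stayed under 1 FPKM in all 4 libraries. Amh, Foxl2 and Btc were at or near 0 throughout. Serpine2, Cyp19a1, Kitl and Nr5a2 were above 1 FPKM in every cKO library, and Cyp11a1 in the GV libraries only. Cyp19a1 was at 9.17 to 10.2 FPKM in GV oocytes and 12.0 to 15.2 FPKM in eggs. The summed level of that list was 267 to 322 FPKM in GV oocytes and 447 to 509 FPKM in eggs, nearly all of it Serpine2. Each library had about 10.5 to 15.6 M fragments, a depth estimated from the step that 1 fragment makes in low values. Pearson's r between replicates over the tested entries was 0.981 to 0.989 in cKO GV oocytes and 0.965 to 0.987 in cKO eggs.

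More transcripts fell than rose during maturation in the Psma7 cKO. Of 10748 entries tested with limma (those averaging 1 FPKM or more in the 8 libraries, values below 1 FPKM set to 1), 5482 were lower in eggs (51% of those tested) and 2472 were higher (23%) at a Benjamini-Hochberg adjusted p under 0.05. The 4 GV and 4 egg values did not overlap for 7374 entries (68.6%). Falls were also larger than rises. The median log2 fold change was -1.23 over the lower entries and 0.72 over the higher ones, and the range over all tested entries was -4.86 to 3.01. A call together with group means more than 3-fold apart was found for 1844 lower entries (17.2%) and 87 higher ones (0.809%), and 65 entries fell and 0 rose more than 10-fold. The entries that fell more than 3-fold held 18.9% ± 0.593 (SD, n = 4) of the summed FPKM in GV oocytes and 4.16% ± 1.29 (SD, n = 4) in eggs. At the other end, the 95% interval of the change lay within 2-fold for 4688 entries (43.6%), of which 984 were called lower and 1196 higher. The median over all tested entries was -0.42, and rescaling the libraries by their median ratio moved it by 0.20 to -0.22. That rescaling raised the count of rises over 3-fold from 87 to 198.

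**Figure D1:**
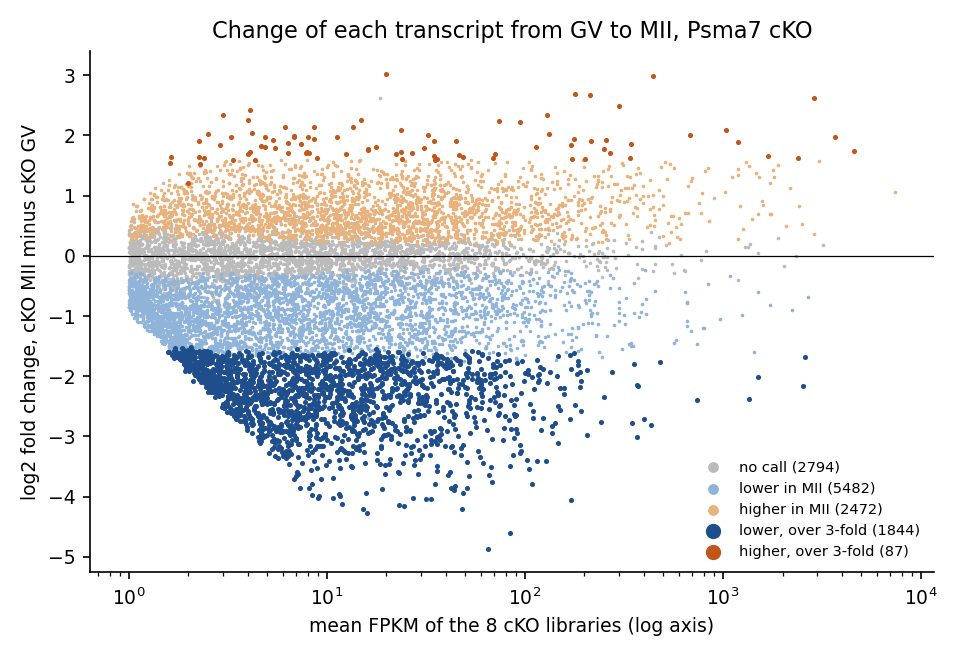
Log2 fold change from GV oocytes to eggs in the Psma7 cKO (vertical axis) against the mean FPKM of the 8 libraries (horizontal log axis), 1 point per tested entry and coloured by the limma call. The 1844 falls over 3-fold reach down to -4.86 and the 87 rises over 3-fold reach up to 3.01, and the straight lower edge at low levels is set by the floor of 1 FPKM.

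The largest falls were seen in transcripts of genes with varied roles. The second and less abundant of 2 entries named Apitd1 (chr4, the centromere protein CENPS) was at 124, 109.9, 119.7 and 142 FPKM in GV oocytes and 0.374, 12.6, 2.2 and 11.6 FPKM in eggs. Its log2 fold change of -4.86 ± 0.74 (SE) was the lowest of all (adjusted p = 0.000275), and eggs 1 and 3 were lower than eggs 2 and 4. Ckb, brain-type creatine kinase, went from 152, 183, 163 and 136 FPKM to 3.00, 2.01, 23.8 and 12.1 FPKM. The groups were far apart, a 15.5-fold fall of the means (-4.61 ± 0.69 (SE), adjusted p = 0.000244), but egg 3 kept far more of the transcript than eggs 1 and 2. Sgta, a co-chaperone that handles tail-anchored membrane proteins, went from 76.8, 99.4, 109 and 79.6 FPKM to 4.66, 2.52, 9.30 and 5.27 FPKM. Mus81, an endonuclease that resolves branched DNA, went from 33.0, 48.8, 53.9 and 38.5 FPKM to 2.66, 1.55, 4.16 and 2.06 FPKM. In both the lowest GV library was several times above the highest egg library, and the falls of the means were 16.8- and 16.7-fold. Stx5a, a Golgi syntaxin, was the most abundant of this group and went from 266, 349, 361 and 298 FPKM to 14.8, 11.8, 40.7 and 18.7 FPKM. Other members of the 10 largest falls were Park7 (entry 2), Zfp707, Ptgis and Eif3l, with log2 fold changes from -4.27 to -4.03. Zfp707, a zinc finger protein, was listed at 0 in eggs 1 and 2. In WT the entries named here changed by -6.98 to -3.92.

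The largest rises were of a different kind. Of the 10 highest log2 fold changes among named, non-overlapping entries, 5 were mitochondrially encoded mRNAs (ATP6, ND2, ND5, CYTB and ND4), and the other 5 were the oocyte transcripts Omt2b and Omt2a and the nuclear genes Taf15, Kdm4a and Snrpe. Omt2b (oocyte maturation, beta) rose 6.29-fold, from 60.9, 49.3, 48.7 and 73.8 FPKM to 349, 430.1, 339 and 345 FPKM. Omt2a (oocyte maturation, alpha) rose 5.05-fold, from 45.7, 37.8, 39.2 and 47.9 FPKM to 213, 226, 208 and 214 FPKM. Both are on chromosome 9 and may share reads, since the stretch of 3′ end printed below is identical between them. Taf15, an RNA-binding protein, rose from 1.07, 1.27, 1.07 and 1.77 FPKM to 7.98, 7.01, 5.84 and 6.57 FPKM. Kdm4a, a demethylase of histone H3 lysines, rose from 0.978, 0.964, 0.685 and 0.849 FPKM to 6.34, 4.59, 4.78 and 4.77 FPKM, with egg 1 above the other 3. Snrpe, a core protein of the spliceosomal snRNPs, rose from 25, 22.6, 21.3 and 36.3 FPKM to 122, 139, 119 and 109 FPKM. Egg and GV libraries without overlap and a limma adjusted p under 0.05 were conditions for the choice of these 10. Their adjusted p values lay between 1.18e-06 and 5.25e-06 in limma. Because the rises and falls were picked as the extremes of this comparison, these values describe it and are not a further test of it.

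**Figure D2:**
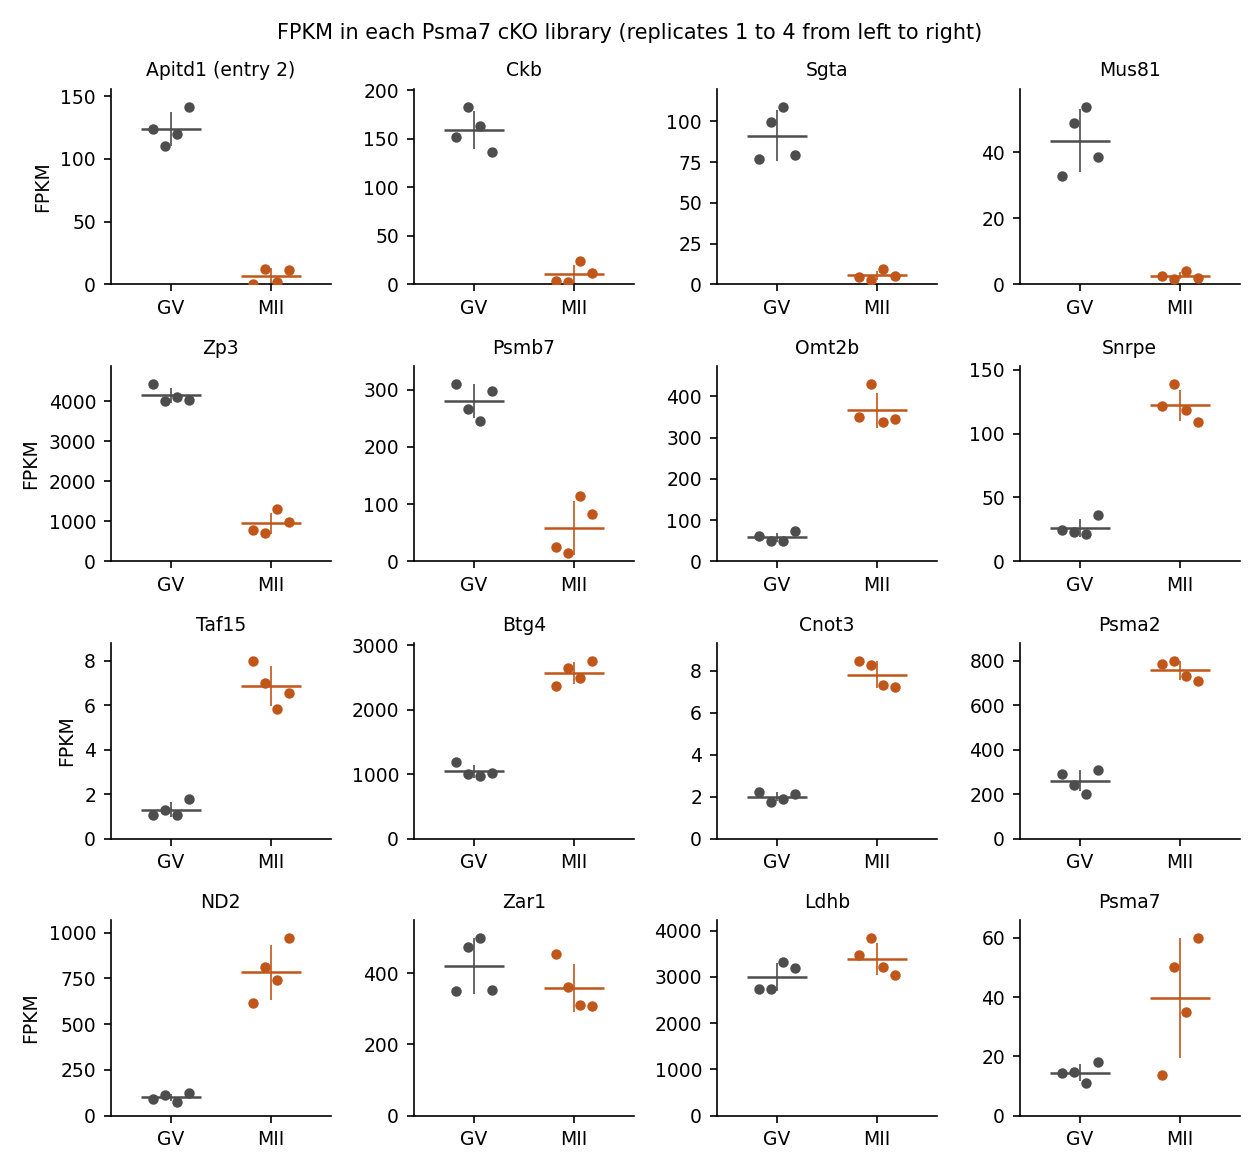
FPKM in each of the 8 Psma7 cKO libraries for 16 named entries (points, replicates 1 to 4 from left to right), with the group mean (horizontal line) and 1 SD (vertical line). Ckb, Psmb7 and Zp3 are lower in all 4 eggs with egg 3 the highest of them, Omt2b, Btg4 and ND2 are higher in all 4 eggs, Zar1 and Ldhb overlap between stages, and Psma7 in egg 1 sits with the GV libraries.

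Transcripts that stayed level included some of the most abundant mRNAs of the oocyte. The 8 highest entries whose interval lay within 2-fold were Ldhb, Zbed3, Nlrp14, Hsp90aa1, Gm15698 (entry 1), Skp1a, Fbxw24 and Ooep. Ldhb, the heart-type lactate dehydrogenase subunit, was at 2743, 2742, 3321 and 3192 FPKM in GV oocytes and 3462, 3836, 3219 and 3038 FPKM in eggs, and the groups overlapped (interval of the log2 fold change -0.07 to 0.42). Ooep, a member of the subcortical maternal complex, was at 1741, 1647, 1168 and 2333 FPKM and 2384, 2007, 2245 and 1616 FPKM, with an interval of -0.17 to 0.75. Zar1, which helps to store maternal mRNA, overlapped too, at 349.9, 474, 498 and 352 FPKM and 453, 362, 311 and 308 FPKM. Nlrp14, a maternal NLR protein needed by the early embryo, stayed within 2-fold but was called lower (log2 fold change -0.69 ± 0.11 (SE), adjusted p = 0.00044). Hsp90aa1, a cytosolic chaperone, and Skp1a, the adaptor of SCF ubiquitin ligases, stayed within 2-fold and were called higher (0.52 and 0.50). Zbed3 was called higher too (0.36, limma adjusted p = 0.0253), a call lost without any 1 of 5 of the 8 cKO libraries. After median-ratio rescaling Ldhb and Ooep were also called higher (0.38 and 0.49, limma adjusted p = 0.0138 and 0.0464).

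The 3 classes differed in the ends of their transcripts. In the GENCODE M21 model of each gene, transcripts that fell more than 3-fold had a median length of 2240 nt and a median 3′ UTR of 609 nt with 48.9% GC. Transcripts within 2-fold had medians of 3170 nt, 1176 nt and 41.1% GC, and those that rose more than 3-fold had 1026.5 nt, 337 nt and 38.7% GC. A CPE was searched as TTTTAT or TTTTAAT, on the transcript strand only, in the last 100 bases of models with a 3′ UTR at least that long. It was found in 141 of 1492 transcripts that fell more than 3-fold (9.45%), 971 of 3935 within 2-fold (24.7%), 170 of 489 that were called and rose more than 2-fold (34.8%), and 31 of 63 that rose more than 3-fold (49.2%). The share was 20.6% over all tested entries and 18.6% over every gene name in the table. Ends rich in A and T hold such letters more often, and the median AT content was 58% in the falling class and 70% in the rising ones. Within each of the 4 bands of AT content the order was still fall, level, rise, for example 20.7%, 29.2% and 39.4% at 66 to 75% AT. TTTTAAT can overlap the polyadenylation signal AATAAA or ATTAAA. Without overlapping matches the shares were 8.58%, 22.5% and 31.5% in the falling, level and over 2-fold rising classes. These shares describe the annotated models, and the 3′ ends used in these oocytes were not measured.

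Stretches of 30 bases around the CPE nearest the end of the model are shown for 7 transcripts that rose and, since the same letters also stood in transcripts that fell, for 2 of those. The match in Gaa overlaps the polyadenylation signal AATAAA, and the others shown overlap neither signal. Letters are the GRCm38 transcript strand written 5′ to 3′ from GENCODE M21, and capitals mark the CPE.
Omt2b (chr9:78329563-78329592, plus strand, rose): acggTTTTATaataaataaaagtttcaggc
Omt2a (chr9:78312008-78312037, minus strand, rose): acggTTTTATaataaataaaagtttcaggc
Rps27l (chr9:66949483-66949512, plus strand, rose): gtcagtttttcaataaagTTTTAATtatgg
Cnot3 (chr7:3661080-3661109, plus strand, rose): tgaataaatagTTTTATatgacggctggca
Cks2 (chr13:51650606-51650635, plus strand, rose): cctgTTTTATtttacctgttttgttaaata
Btg4 (chr9:51119805-51119834, plus strand, rose): ccctTTTTATgtctttttaaaagtttgatt
Ern1 (chr11:106394697-106394726, minus strand, rose): acagTTTTATaattctgctcattgatgaag
Gdf9 (chr11:53437862-53437891, plus strand, fell): gtggTTTTATgtgacggaagaataaactgt
Gaa (chr11:119285422-119285451, plus strand, fell): ttacTTTTAATaaaaaggatattgtttgga
The log2 fold changes of these 9 ran from 2.67 for Omt2b down to 1.42 for Ern1 and 1.3 for Btg4 among the risers, and were -0.90 for Gdf9 and -3.16 for Gaa.

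**Figure D3:**
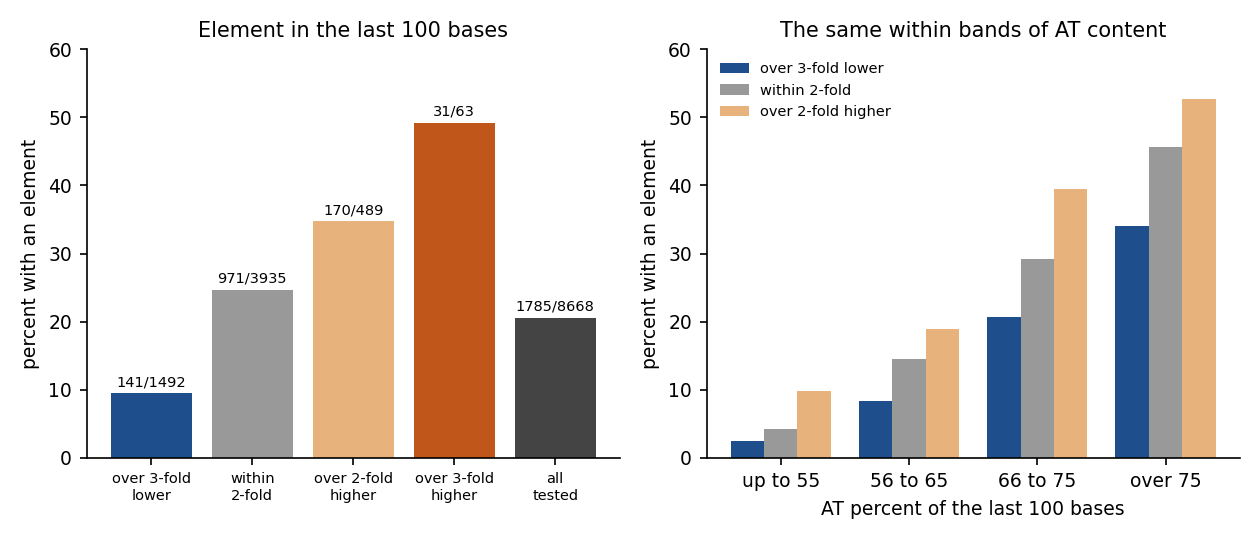
Percent of transcripts with a CPE (TTTTAT or TTTTAAT) in the last 100 bases of the GENCODE model, by class of change in the Psma7 cKO (left, counts above the bars) and within bands of AT content of those bases (right). The share goes from 9.45% in transcripts that fell over 3-fold to 49.2% in those that rose over 3-fold, and the order of fall, level and rise is the same in all 4 bands.

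Genes of the meiotic cell cycle moved in both directions. Of 40 tested, 20 were lower (50%, about the 51% of all tested entries) and 13 higher (32.5%, beside 23% of all), with a median log2 fold change of -0.25 beside -0.42 over all tested entries. Pttg1 (securin, the inhibitor of separase) was the most abundant and rose from 636, 590.2, 599 and 724 FPKM to 1356, 2006, 1707 and 1875 FPKM. Cks2, a small subunit of cyclin-dependent kinases, rose most, from 28.5, 24.3, 21 and 33.3 FPKM to 76.8, 85.0, 83.2 and 73.9 FPKM. Mad2l1, a spindle checkpoint protein, Mos, the kinase that holds eggs at metaphase II, and the cyclins Ccnb1 and Ccnb2 were also called higher (1.47, 0.89, 0.58 and 0.39). Fzr1 (CDH1), the activator of the anaphase-promoting complex that keeps GV oocytes arrested, fell most, from 65.5, 80.9, 101 and 79.6 FPKM to 14.9, 8.97, 10.3 and 7.63 FPKM. Cdk1, the kinase that drives entry into M phase, fell from 10.9, 12.0, 9.09 and 13.0 FPKM to 1.55, 1.12, 4.34 and 3.11 FPKM, and the phosphatases Cdc25b and Cdc25c that activate it fell by 1.97 and 1.40 on the log2 scale. Of 31 spindle genes 16 were lower and 9 higher (51.6% and 29%, near the shares of all entries). Tubulins were among the former (Tubb4b -2.82, Tuba1b -2.13), while the kinetochore gene Nuf2 (0.94), the actin nucleator Fmn2 (1.34) and the ARP2/3 subunit Actr2 (1.51) were higher. Actin nucleators went both ways, since Spire2 had the largest fall of the spindle list (-2.97).

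In the mRNA decay machinery rises outnumbered falls. Of 25 tested entries 11 were higher and 7 lower (44% and 28%, beside 23% and 51% of all tested entries), with a median of 0.23. Btg4 was at 1190.1, 1006, 964 and 1017 FPKM in GV oocytes and 2369, 2649.6, 2493 and 2756 FPKM in eggs, a 2.46-fold rise (1.3 ± 0.09 (SE), adjusted p = 3.85e-06). Cnot3, a scaffold subunit of CCR4-NOT, rose from 2.2, 1.74, 1.90 and 2.13 FPKM to 8.45, 8.25, 7.29 and 7.21 FPKM. The catalytic subunits Cnot6l, Cnot7 and Cnot6 (1.25, 1.19 and 0.85), the decapping enzyme Dcp2 (1.21), the exonuclease Xrn1 (1.2) and the terminal uridylyl transferase Zcchc6 (0.87, TUT7) were higher as well. Cnot10 (-2.53) and Cnot9 (-1.81), which are subunits of the same complex, and Tob1 (-2.11), a BTG family protein, were lower.

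Among 30 genes of mRNA storage and translation control, 15 were lower (50%, beside 51% of all tested entries) and 11 higher (36.7%, beside 23%). Patl2, an RNA-binding protein required for oocyte maturation, fell from 59.4, 41.2, 59.1 and 43.4 FPKM to 3.74, 3.23, 7.57 and 5.66 FPKM. Falls were also called for Pabpc1l, the egg form of the poly(A)-binding protein (-2.84), for Zar1l (-2.31), for the CPE-binding protein Cpeb1 (-1.73) and for Ybx2 (entry 1), which packages stored mRNA (-1.47). Cpeb4 (1.44), Dazl (1.13), which activates translation in maturing oocytes, Lsm14b (1.21) and Papd4, the cytoplasmic poly(A) polymerase GLD2 (0.56), were higher.

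Most genes of the 19S particle of the proteasome fell. That particle recognises and unfolds ubiquitinated proteins, and 15 of its 19 genes were lower (78.9%, beside 51% of all tested entries), 3 higher and 1 (Psmd11) was not called, with a median of -1.32. Psmd4, which binds ubiquitin chains, fell from 481, 524, 505 and 455 FPKM to 171, 156, 219 and 169.6 FPKM. Psmd13 fell most, from 9.71, 11.2, 13.5 and 10.5 FPKM to 0.305, 0.451, 1.52 and 1.02 FPKM. The 3 that were higher were Shfm1 (0.55), Psmc6 (0.39) and Psmd1 (0.36). Of 13 tested entries of the 20S core other than Psma7, 7 were lower and 4 higher (53.8% and 30.8%, near the 51% and 23% of all entries), with a median of -0.65. Psmb7, which carries the trypsin-like site, fell from 309.8, 266, 245 and 297 FPKM to 24.6, 14.0, 114 and 82.0 FPKM, with eggs 3 and 4 well above eggs 1 and 2. Psmb5, with the chymotrypsin-like site, fell by 2.28 on the log2 scale. Psma2 went the other way, from 291, 241, 201 and 309 FPKM to 786, 798, 731 and 709 FPKM, and was also the most abundant of the 20S genes. Of 37 ubiquitin and ligase genes 15 were lower and 14 higher (40.5% and 37.8%). The polyubiquitin gene Ubb fell (-1.68) as did the E1 enzyme Uba1 (-1.64), whereas Cdc26 and Anapc10, subunits of the anaphase-promoting complex, and the E2 enzyme Ube2d1 were higher (1.45, 1.33 and 1.34). Subunits of that complex went both ways, since Anapc5 had the largest fall of this list (-2.66).

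The transcripts that make an oocyte recognisable also split. All 3 zona pellucida genes, which encode the egg coat, fell. Zp3 went from 4436, 4019.7, 4104 and 4025 FPKM to 781, 722, 1314 and 974 FPKM and Zp1 from 1370.4, 1163, 1269 and 1173 FPKM to 243, 244, 269.6 and 197 FPKM, and Zp2 changed by -2.02. Oosp1, an oocyte-secreted protein, rose from 1703, 1461, 1065 and 1866 FPKM to 5762, 6415, 5639.7 and 5639 FPKM, and Oosp3 rose by 1.89. Of 34 maternal effect entries 15 were lower and 9 higher (44.1% and 26.5%, not far from the 51% and 23% of all tested entries). Tle6, of the subcortical maternal complex, fell from 599, 744, 737 and 671 FPKM to 164, 107, 104 and 66.2 FPKM and its partner Nlrp5 by 1.24 on the log2 scale, while the demethylation enzyme Tet3 (1.01), Dppa3 (0.78), which guards methylation of the maternal genome, and Tcl1 (1.33) rose. Oog2 (entry 2) was called higher, at 0.568, 0.779, 0.762 and 0.788 FPKM in GV oocytes and 0.353, 11.4, 3.12 and 14.4 FPKM in eggs, with egg 1 below the GV libraries, and that call was lost with a floor of 0.1 FPKM (adjusted p = 0.0608). Of 26 oocyte signalling and oogenesis factors 14 were lower and 7 higher (53.8% and 26.9%, again near those shares). Gdf9, a growth factor that acts on the cumulus cells, went from 2639, 2951, 3407 and 2639 FPKM to 1944, 1778, 1289 and 1309 FPKM, and Fgf8, another oocyte signal, from 97.7, 66.3, 71.3 and 79.5 FPKM to 5.80, 5.36, 17.2 and 8.14 FPKM. The transcription factors of oogenesis Nobox, Lhx8 and Figla fell (-2.19, -1.93 and -1.87), and 4 Obox homeobox genes rose by 1.16 to 1.43.

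Most ribosomal protein genes fell. Of 50 large-subunit entries 39 were lower and 4 higher (78% and 8%, median -1.61), and of 30 small-subunit entries 23 were lower and 4 higher (76.7% and 13.3%, median -1.33), beside 51% and 23% of all tested entries. Many ribosomal protein genes have processed pseudogenes, so their single values are less certain than those of other genes. Rpl24 went from 89.1, 76.9, 60.8 and 129 FPKM to 2.01, 1.85, 43.0 and 13.1 FPKM and egg 3 stood far above eggs 1 and 2. Rps27a, a fusion of ubiquitin with a ribosomal protein, went from 172, 155, 122 and 207 FPKM to 8.79, 5.63, 66.8 and 23.4 FPKM, again with egg 3 highest. Rps27l, a paralogue of Rps27, rose from 75.3, 65, 62.4 and 94.8 FPKM to 257, 292, 290.4 and 283 FPKM. The summed share of ribosomal protein transcripts was 1.44% ± 0.245 of all FPKM in GV oocytes and 0.896% ± 0.165 in eggs (SD, n = 4 each, exact permutation test p = 0.0286).

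Nuclear and mitochondrial genes of the respiratory chain changed in opposite directions. Of 79 nuclear entries 49 were lower and 6 higher (62% and 7.59%, beside 51% and 23% of all tested entries), with a median of -0.97. Ndufb7 and Uqcrc1 were among those that fell most (-3.79 and -3.69), Cox5a, the most abundant, was at -0.70 (a call lost without cKO GV library 4 or cKO egg 1, adjusted p = 0.0538 and 0.0506), and Ndufa1, Cox8a and Ndufa4 were higher (1.5, 1.45 and 1.41). All 11 tested mitochondrially encoded entries were higher, with a median of 2.22. ND2 went from 89.4, 111, 75.8 and 121 FPKM to 614, 812, 739.7 and 971 FPKM and CYTB from 873, 798, 738 and 758 FPKM to 3209.6, 5203, 4795 and 6794 FPKM. ATP6 had the largest rise, from 4.02, 5.11, 3.28 and 5.02 FPKM to 28.3, 33.6, 30.7 and 48.9 FPKM, and the ribosomal RNAs mt-Rnr2 and mt-Rnr1 the smallest (1.57 and 1.53). Together mitochondrial entries held 1.03% ± 0.174 of the summed FPKM in cKO GV oocytes and 4.01% ± 0.787 in cKO eggs (SD, n = 4 each, exact permutation test p = 0.0286). In WT the shares were 1.15% ± 0.133 and 5.69% ± 0.0854 (SD, n = 4 each). All 4 cKO eggs, at 3.06%, 4.26%, 3.79% and 4.93%, were below all 4 WT eggs (exact permutation test p = 0.0286, the smallest p that 4 against 4 allow).

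**Figure D4:**
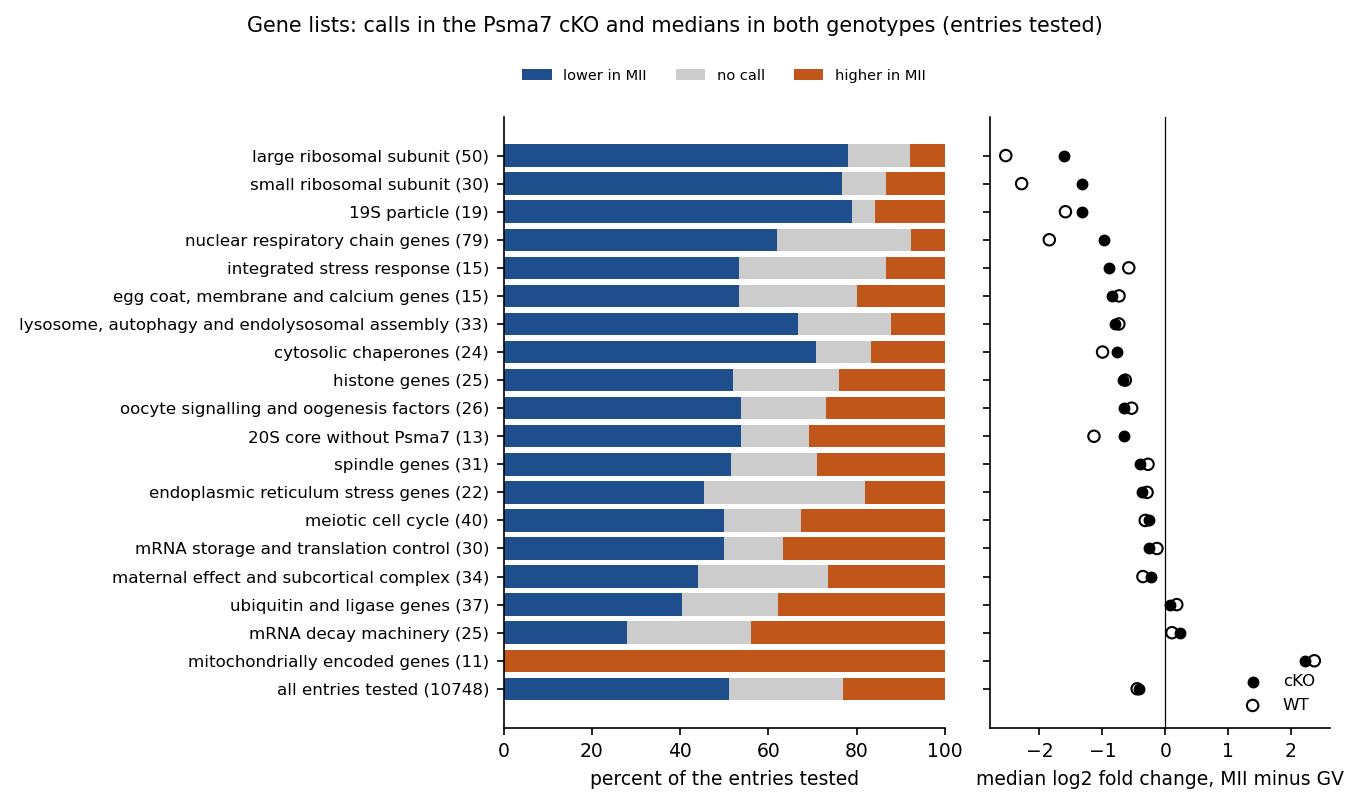
Left, percent of the tested entries of each gene list called lower, not called or called higher in Psma7 cKO eggs, with the number tested in brackets. Right, median log2 fold change from GV to MII of the same list in the cKO (filled) and in WT (open). Ribosomal, 19S and nuclear respiratory chain genes lie lowest and the 11 mitochondrially encoded entries at 2.22, and the cKO medians of the ribosomal and nuclear respiratory lists are less negative than the WT ones.

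Set beside WT maturation, the cKO followed much the same course. Of 2291 entries that fell more than 3-fold in WT, by a limma call and fit, 2267 (99%) were called lower in the cKO, beside 51% of all tested entries. Of 114 that rose more than 3-fold in WT 110 (96.5%) were called higher, beside 23% of all. Fewer passed 3-fold in the cKO as well, namely 1683 of the falls (73.5%) and 64 of the rises (56.1%), by a call and the group means. Pearson's r between the cKO and WT log2 fold changes across 10361 entries was 0.947 and Spearman's rho 0.956. These 2 comparisons share no library, but entries are not independent replicates. Entries chosen for a large WT change changed somewhat less in the cKO, with medians of -2.01 in the cKO and -2.40 in WT over the falls and 1.65 and 1.79 over the rises. The size of this difference was measured per egg, as the slope of its changes on the WT changes, where each WT egg was set against the other 3 WT eggs. Over the falls the slopes were 0.842, 0.931, 0.574 and 0.775 in cKO eggs 1 to 4 (0.781 ± 0.152, SD, n = 4) and 1.01, 0.963, 0.996 and 1.00 in WT eggs (0.994 ± 0.0220, SD, n = 4). No cKO egg overlapped the WT eggs (two-sided exact permutation test p = 0.0286, the smallest possible), and the cKO spread was several times the WT one, with egg 3 lowest. Over the rises the slopes were 0.874, 0.880, 0.811 and 0.842 in cKO eggs and 0.995, 1.03, 0.896 and 0.899 in WT eggs (p = 0.0286 in the same exact test). That difference had an exact permutation p = 0.143 when each WT egg was set against a WT GV library that the WT changes did not use, whereas the fall kept p = 0.0286.

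The shortfall of the fall went with transcript length, and differed between the cKO eggs. Among entries that fell more than 3-fold in WT, those of up to 600 nt had median log2 changes of -2.14, -2.37, -0.90 and -1.70 in cKO eggs 1 to 4 and -2.53 to -2.91 in WT eggs. At 2000 to 3000 nt the medians were -2.04, -2.24, -1.83 and -2.17 in cKO eggs and -2.30 to -2.44 in WT eggs. Against the mean of the 4 WT medians, cKO eggs 1 to 4 fell short by 0.58, 0.35, 1.81 and 1.02 up to 600 nt and by 0.21, 0.07, 0.50 and 0.23 over 5000 nt (log2). The shortfall was thus larger for short transcripts in all 4 cKO eggs, and eggs 3 and 4 had most of it. The entries were chosen for their fall in the same 4 WT eggs, with no egg left out. The shortfall and its change with length may therefore be overstated, and by how much was not tested. The gene lists with the shortest transcripts moved with this. The median length was 910 nt for large-subunit genes, 869 nt for small-subunit genes and 908 nt for nuclear respiratory chain genes, beside 2689 nt over all tested entries. The genotype by stage interaction, (cKO MII minus cKO GV) minus (WT MII minus WT GV), was above 0 for 45 of 50 large-subunit, 29 of 30 small-subunit and 73 of 79 nuclear respiratory entries, with medians of 0.80, 0.88 and 0.73. In the interaction test 2, 3 and 4 entries of these lists were called positive and 0 negative. Members of a list were measured in the same eggs and are not independent replicates. Without egg 3 the medians were 0.52, 0.65 and 0.52. Of the 10555 tested entries that were also in the interaction fit, 5630 were above 0, with a median of 0.03, and 113 were called positive. Other lists with short transcripts differed among themselves. The 20S core without Psma7 (median length 1165 nt) had 13 of 13 above 0 and a median of 0.55, with 0 called. Histone genes (1113 nt) had 13 of 24 above 0 and a median of 0.17, with 2 called positive. The part of RNA length, RNA quality or the stage of the pooled oocytes in these values was not tested.

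**Figure D5:**
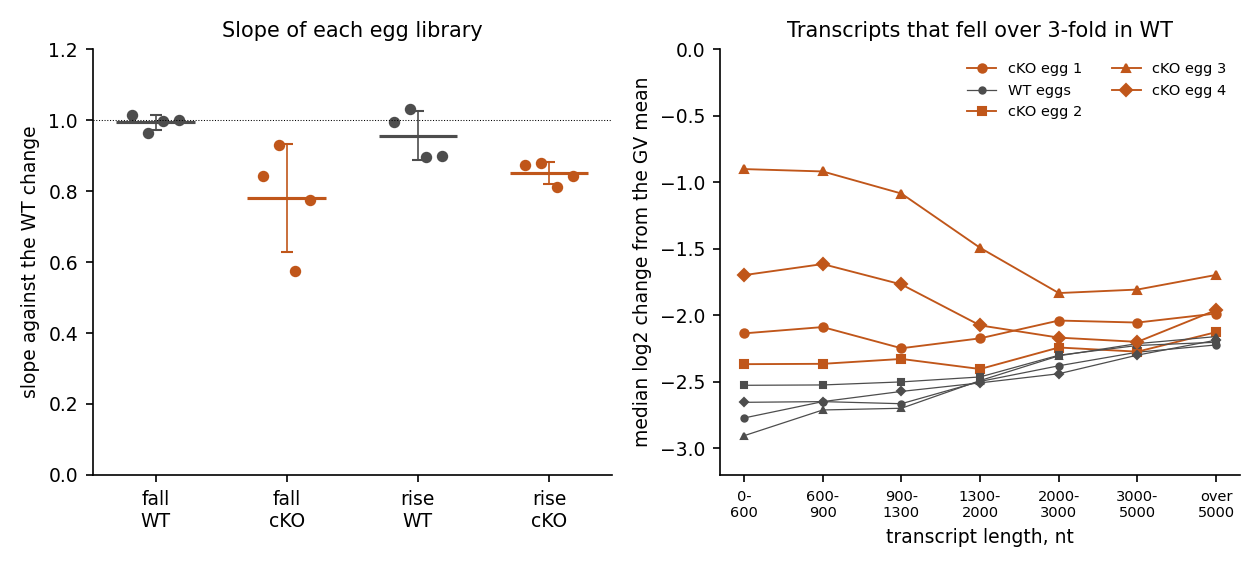
Left, slope of the change in each egg library on the WT change over entries that fell or rose more than 3-fold in WT (points, replicates 1 to 4 from left to right, with the group mean and 1 SD). Right, median log2 change from the GV mean of the entries that fell over 3-fold in WT, by transcript length, in each of the 4 cKO eggs (orange) and 4 WT eggs (grey). The fall slopes of the cKO eggs lie between 0.574 and 0.931, below the WT eggs, and the lines of cKO eggs 3 and 4 rise toward short transcripts.

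Single entries that differed between genotypes were few. Of 10615 entries in the interaction test 114 were positive (1.07%) and 20 negative (0.188%) at an adjusted p under 0.05. The positive count was 605 without cKO egg 2. It was 37 to 74 without any 1 of WT GV libraries 1, 3 and 4, WT eggs 1, 3 and 4 and the 4 cKO GV libraries, and 107 to 157 without any other library. The negative count was 46 without cKO egg 2, 32 without cKO egg 1 and 4 to 24 without any other library. Among the 113 positive entries also tested in the cKO, 94 were still called lower in cKO eggs and 37 of them fell more than 3-fold, and 111 had a negative WT change. Most positive entries therefore fell in both genotypes and fell less in the cKO. Rpsa (laminin receptor and ribosomal protein) was at 28.2, 27, 16.3 and 32.6 FPKM in cKO GV oocytes and 13.1, 7.32, 15.8 and 7.81 FPKM in cKO eggs, a log2 fold change of -1.28 beside -4.14 in WT (interaction 2.86 ± 0.39 (SE), adjusted p = 0.00853). Commd9, an endosomal sorting factor, went from 74.3, 72.9, 69.2 and 65 FPKM to 11.0, 7.47, 23.6 and 13.2 FPKM, with a change of -2.48 beside -4.86 in WT. Hint1, a nucleotide hydrolase, went from 30.1, 26.1, 22.7 and 33.0 FPKM to 5.09, 3.40, 10.6 and 5.68 FPKM, with -2.29 beside -4.66. These 3 calls held when any 1 of the 16 libraries was left out. Ubb and Zp3, both described above, belonged to this group too, the call of Zp3 being lost without cKO GV library 3 (adjusted p = 0.0513), with interactions of 1.16 ± 0.18 (SE) and 1.14 ± 0.22 (SE).

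Beside Psma7, 6 genes are named in the RNA-seq results of the study, and since they were chosen on these samples their values are not independent of that choice. All 6 fell in cKO eggs. Cpsf4l, a paralogue of a cleavage and polyadenylation factor, went from 116, 111, 98.2 and 121 FPKM to 19, 12.1, 32.7 and 17.4 FPKM, and Tomm40, the pore of mitochondrial protein import, from 33.0, 33.4, 37.1 and 35.2 FPKM to 6.17, 2.26, 12.3 and 8.03 FPKM. Both fell less than in WT (-3.92 and -4.60 there, interaction adjusted p = 0.0368 and 0.0444), but the interaction call was lost on leaving out any 1 of 10 libraries for Cpsf4l and of 14 for Tomm40, with adjusted p up to 0.0820 and 0.0940. Cdk1, Dppa4, Rpl39 and Gm9844 had log2 fold changes of -2.34, -2.55, -1.81 and -1.54, and interaction adjusted p values of 0.146, 0.165, 0.117 and 0.0537. Without cKO egg 2 those 4 became 0.0151, 0.000163, 0.00406 and 0.00327.

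Negative interactions marked entries that rose less, fell more, or fell in the cKO while rising in WT. Among the 19 negative entries also tested in the cKO, 11 were called lower in cKO eggs and 3 higher. Of the 19, 6 had a negative WT change. Lcp2, an adaptor of immune receptor signalling, was at 5.84, 5.69, 4.22 and 3.83 FPKM in cKO GV oocytes and 7.18, 3.91, 5.06 and 4.86 FPKM in cKO eggs, where the groups overlapped, and rose by 1.87 on the log2 scale in WT (interaction -1.78 ± 0.35 (SE), adjusted p = 0.028). That interaction had adjusted p values of 0.0604 and 0.0577 without WT egg 1 and without cKO GV library 2. Cd59a, an inhibitor of complement, went from 5.47, 3.6, 3.67 and 4.92 FPKM to 4.61, 5.99, 5.10 and 5.07 FPKM, with 0.25 in the cKO and 1.52 in WT (interaction -1.26 ± 0.22 (SE), adjusted p = 0.0148). BC048502 rose in both genotypes, from 5.75, 3.83, 4.14 and 5.24 FPKM to 12.7, 10.2, 9.57 and 10.1 FPKM in the cKO, and less than in WT (1.17 beside 2.59). The calls of Cd59a and BC048502 held without any 1 of the 16 libraries.

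Only 8 of the 7127 entries called in both genotypes had opposite signs. They were 4930524B15Rik, Ccdc85a, Gm15441, Gm36448, Got1, LOC108167785, Psma7 and Trpa1. The interaction was not called for Gm15441, Got1, LOC108167785 and Psma7 (limma adjusted p = 0.0635, 0.0531, 0.0784 and 0.0847). 4930524B15Rik, an uncharacterised transcript picked out here after its values were seen, was at 0.0766, 0.0669, 0 and 0.0931 FPKM in cKO GV oocytes and 0, 3.49, 5.35 and 3.91 FPKM in cKO eggs. In WT it was at 4.06, 5.84, 3.41 and 3.14 FPKM in GV oocytes and 0, 0, 0.0342 and 0.0743 FPKM in eggs. The cKO egg 1 library lacked it as the WT eggs did, while cKO eggs 2, 3 and 4 were in the range of WT GV oocytes, and this is the same division of the eggs as for Psma7 and Oog2 (entry 2). When egg 1 alone was compared with the 4 GV libraries 6082 entries were called in place of 7954, and 5871 were called both ways. The labels give all 4 egg pools the same genotype. Whether pools 2, 3 and 4 differed from pool 1 in genotype or handling was not tested. This limits what their values say of oocytes that had lost the Psma7 gene. Ccdc85a and Trpa1 (a calcium channel) were lower in cKO eggs (-0.39 and -0.45) and higher in WT eggs (0.83 and 0.59), and Got1, the cytosolic aspartate aminotransferase, was the reverse (0.27 and -0.34). The cKO calls of these 3 were lost without any 1 of 5, 6 and 2 of the 8 cKO libraries, with adjusted p up to 0.0878, 0.0922 and 0.0612.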

How the data were processed

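Full-length cDNA was made by the study with oligo-dT primers (Smart-seq2). The authors deposited FPKM values from Cufflinks 2.2.1 after alignment with TopHat2 2.1.1 to mm10, per the submitters' processing notes; the annotation is not given in the sources used here. ERCC RNA was added, but the table holds 0 ERCC entries. It lists 28618 entries for 27987 gene names, and entries of one name were not merged. Depth can only be estimated, so no counting intervals are given.

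Values below 1 FPKM were set to 1, as in the study. Entries that averaged 1 FPKM or more across the compared libraries were fitted on log2 values with limma 3.58.1 in R 4.3.3 (empirical Bayes moderation with an intensity trend), and an adjusted p under 0.05 was a call. Fold changes of low transcripts are understated by the floor. An entry was within 2-fold where its 95% interval was inside that range. Values of which each library has 1 were tested by exact permutation (two-sided) in scipy 1.17.1, with 70 arrangements and a smallest p of 0.0286. The labels do not say that pools came from separate females, so p-values measure the spread between pools, which may be technical. In simulated cKO libraries with 11281 entries tested, limma recovered 88% of transcripts raised 2-fold and 96% of those lowered 3-fold, with 11 false calls. The changed transcripts had GV means of at least 5 FPKM, and both stages were drawn with the spread of the GV libraries. These rates therefore do not cover lower transcripts or the spread of the eggs.

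Gene models came from GENCODE M21 (GRCm38), matched by symbol for 80.4% of entries and 94.0% of those tested. Transcripts named in the text are the genes the study names, the 10 lowest and 10 highest non-overlapping changes, the most abundant and most changed members of each list, the 8 most abundant level entries and the 8 most positive and negative interactions, without predicted genes, and any other member of a list is named for its role after its values were seen. The groups, lists, rules and tests were chosen with earlier results of these data known. Alternatives changed the floor, scaling, filter, moderation, block, fold and libraries; comparing egg 1 alone, and the WT slopes against an unused GV library, were added after seeing the data. A few transcripts that these rules would name are not reported here.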

Additional observations from a re-analysis of the deposited data

Results flagged for a closer look

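Of 104 groups of 4 libraries whose values are printed, 4 held 1 library far from the other 3, where chance flags about 1 in 20. Kdm4a was at 6.34 FPKM in cKO egg 1, above the other eggs. Omt2b was at 430.1 FPKM and Oosp1 at 6415 FPKM in cKO egg 2, both above the other eggs, and all 4 eggs were above all GV libraries for these 3 genes. Oog2 (entry 2) was at 0.568 FPKM in cKO GV library 1, below the other GV libraries, at a level near the floor.

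The change from GV to MII differed between genotypes in the interaction test for 114 positive and 20 negative entries. Among those printed, the interactions were 2.86 for Rpsa, 2.39 for Commd9, 2.37 for Hint1, 2.1 for Tomm40, 1.80 for Phgdh, 1.37 for Cpsf4l, 1.14 for Zp3 and 3.54 for 4930524B15Rik, and they were -1.78 for Lcp2, -1.42 for BC048502 and -1.26 for Cd59a. The slopes also differed, by -0.213 over the falls and by -0.104 over the rises (cKO minus WT, n = 4 each, exact permutation test p = 0.0286 for both). In 4930524B15Rik, Psma7 and Oog2 (entry 2), cKO egg 1 was apart from cKO eggs 2, 3 and 4, and in the fall of short transcripts cKO egg 3 was apart from eggs 1 and 2.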

How the results depend on the processing

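A mean of at least 5 FPKM left 3136 lower entries and 2952 within 2-fold, from fewer entries tested. Rescaling by the median ratio gave 198 rises over 3-fold. With 2-, 5- and 10-fold in place of 3-fold the falls were 3396, 641 and 65 and the rises 625, 12 and 0, and an interval within 1.5-fold held 1945 entries. With egg 1 alone Psma7 was at -0.077 and Atf4 at 0.085 (log2 fold change), both opposite in sign to the full comparison and past no threshold.

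The interaction counts were 75 and 8 (positive and negative) with 1 FPKM added, 192 positive with a mean of at least 5 FPKM, 32 negative without a filter and 214 and 13 with cKO egg 1 alone. With 1 library left out they ran from 37 to 605 and from 4 to 46. Same-numbered cKO GV and egg libraries did not deviate together (r from -0.226 to 0.0662). With a replicate block the interaction counts were 53 and 7 and the maturation counts 5272 lower and 2260 higher, with 7478 of 7532 calls shared.

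The difference between slopes (cKO minus WT) ran from -0.263 to -0.144 over the falls (all at p = 0.0571) and from -0.144 to -0.0665 over the rises (p from 0.0571 to 0.343, the highest without WT egg 1) with 1 egg left out, where an exact permutation test of 3 against 4 cannot go below p = 0.0571. Over the rises it was -0.0934 with 1 FPKM added and -0.100 after rescaling (exact permutation test p = 0.0571 for both), -0.0619 as a median of ratios (p = 0.2) and -0.0777 against an unused GV library (p = 0.143), and with WT changes over 10-fold it has no value, since 1 entry was left for 7 of the eggs and 0 for WT egg 4. FPKM values without counts limit what can be said of transcripts below 1 FPKM.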

Other observations

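Of all entries tested, 51% were lower and 23% higher. Of 24 cytosolic chaperone entries 17 were lower and 4 higher (70.8% and 16.7%), with the chaperonin gene Cct6a (-2.43) and the heat shock protein gene Hspa8 (-1.65) among the former. Of 15 integrated stress response genes 8 were lower and 2 higher (53.3% and 13.3%), a share of falls near that of all entries. Phgdh, the first enzyme of serine synthesis, went from 33.2, 36.1, 32.4 and 30.8 FPKM to 2.51, 2.72, 6.55 and 5.77 FPKM, and Ddit3 (CHOP), a factor of prolonged stress, changed by -2.37. Atf4, the central factor of that response, was at 163, 171, 156 and 185 FPKM in GV oocytes and 179, 80.7, 86.8 and 54.1 FPKM in eggs, with egg 1 in the range of the GV libraries (adjusted p = 0.0224, and 0.0559, 0.0507 and 0.0501 without cKO GV library 4, egg 2 or egg 4). Of 22 endoplasmic reticulum stress entries 10 were lower and 4 higher (45.5% and 18.2%, both below the shares of all entries), and Ern1 (IRE1), a sensor of unfolded protein, rose from 21.5, 24.1, 23.1 and 23.3 FPKM to 65.9, 65.9, 56.6 and 58.7 FPKM.

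Of 33 entries for lysosomes, autophagy and their assembly into larger compartments, 22 were lower and 4 higher (66.7% and 12.1%). Gaa, the lysosomal glucosidase, went from 10.9, 16.8, 17.7 and 13.8 FPKM to 2.18, 1.45, 1.84 and 1.22 FPKM. Rufy1, an organiser of endolysosomal assemblies, changed by -1.69 and the autophagy receptor Sqstm1 by -1.96, while Npc1, a cholesterol transporter of lysosomes, and Atp6v1h, a subunit of the lysosomal proton pump, were higher (0.70 and 0.86). Of 25 histone entries 13 were lower and 6 higher (52% and 24%, about the shares of all entries). The oocyte linker histone H1foo rose from 1794, 1742, 1721 and 1713 FPKM to 3297, 3463, 2681 and 2944 FPKM, and both genes of the replication-independent histone H3.3, H3f3a and H3f3b, were higher too (1.47 and 1.04).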
